A study of Drosophila melanogaster with 107 samples.

Results

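The genes haf, sca, 2mit and rho are 4 of the 17050 genes in each deposited table, matched by symbol and all found in both tables. They were chosen by measured values, namely their levels around puparium formation and in γ neurons carrying EcR-DN, E75 RNAi or Sox14 RNAi. Levels in those stages and perturbations are therefore given as a description, with no test. For the 4 genes, tests are given only for the later of the sampled pupal stages and for adult cells, which did not enter the choice. Lists of other pathway and family genes were also tested around puparium formation and in the perturbations. Both the 4 genes and these lists were chosen with earlier results of these data known.

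All 4 encode secreted or membrane proteins. The haf gene (hattifattener, FBgn0261509, chromosome 2L) and 2mit (FBgn0260793, chromosome 3R) encode transmembrane proteins with extracellular leucine-rich repeats, a fold common in cell recognition and adhesion. The sca gene (scabrous, FBgn0003326, chromosome 2R) encodes a secreted fibrinogen-related protein that modulates Notch signalling during the spacing of neural precursors. The rho gene (rhomboid, FBgn0004635, chromosome 3L) encodes an intramembrane serine protease that cleaves ligand precursors such as Spitz and so starts signalling through the epidermal growth factor receptor (EGFR). Mushroom body γ neurons prune their larval axon branches early in metamorphosis and later grow adult ones. The steroid hormone ecdysone starts this programme through its receptor EcR, and Eip75B (E75, a nuclear receptor) and Sox14 (a transcription factor) belong to the genes it induces.

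The study sequenced poly(A) RNA from the 3' end by MARS-seq, in libraries of 1000 DsRed-positive cells sorted from Drosophila brains. The perturbation table holds 43 libraries of γ neurons labelled EcR-DN (dominant-negative ecdysone receptor), E75 RNAi, Sox14 RNAi or control, in the last larval instar (L3) and at 0, 6 and 12 h after puparium formation, with 2 or 3 libraries per group. The developmental table holds 64 libraries. They are γ neurons as L2 and L3 larvae (the instars before pupation), every 3 h from 0 to 30 h, and in the adult, and adult αβ neurons, other neurons outside the mushroom body (non-MB) and astrocyte-like glia, with 3 or 4 libraries per group. All animals were reared at 25 °C, the sexes were mixed at random, and adults were 3 to 5 days past eclosion. The labels give the genotype y,w/+; UAS-RedStinger/+;71G10/+ for the γ time course and the control, so the R71G10 driver marks these cells with a red reporter. Perturbed strains are labelled by the transgene alone. The αβ neurons carried y,w/w; UAS-RedStinger/+;NP3061-GAL4/+. The non-MB neurons came from y,w/C155-GAL4 flies in which UAS-RedStinger stood over MB247-GAL80, which keeps the driver silent in mushroom body cells. For the astrocyte-like cells the driver was alrm-Gal4 with UAS-CD8:GFP and UAS-Dcr2, over TM6, tb, and UAS-RedStinger was over cyo. Replicates are not stated to be separate animals or sorts, so p-values measure the spread between these libraries, which may be technical.

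Per library, the normalized reads summed to 1896123 to 2501051 in the perturbation table and to 1343651 to 2068007 in the developmental table. The 2 tables were scaled separately. Where the spacing of low values allowed an estimate, 1 sequenced read was worth up to 2.39 normalized reads in 16 perturbation libraries and up to 4.35 in 18 developmental libraries. A level of a few normalized reads, common for haf, can thus be a handful of sequenced reads. In bulk samples, fewer cells that express a gene and less RNA of it per cell cannot be told apart. Astrocyte-like libraries stood apart in quality, with correlations of 0.702 to 0.770 between libraries of that group against 0.853 to 0.947 within the other developmental groups. They held 13176 to 24304 normalized reads of 5 glial marker genes, against 1 to 352 in the neuron libraries of that table. Mushroom body markers (ey, Mef2, dac, prt) summed to 2773 to 6866 in γ and 6873 to 8854 in αβ neurons, against 901 to 1176 in non-MB neurons and 710 to 1230 in astrocyte-like cells.

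The targeted transcripts check the perturbation labels. Sox14 averaged 1095 ± 58.5 (SD, n = 3) normalized reads in Sox14 RNAi neurons at L3, against 6921 ± 782 (SD, n = 2) in control, and 1018 ± 91.4 (SD, n = 3) against 7445 ± 403 (SD, n = 3) at 0 h. At 6 h it averaged 577 ± 178 (SD, n = 3) against 487 ± 22.6 (SD, n = 2), and at 12 h 307 ± 108 against 322 ± 68.7 (SD, n = 3 each), so Sox14 reads do not show a knockdown at these later stages, where the control itself is low. Eip75B was not lower throughout in the libraries labelled E75 RNAi. It averaged 18818 against 29970 in control at L3, 28752 against 30265 at 0 h, 17467 against 7401 at 6 h and 10210 against 9306 at 12 h. Reads of Eip75B were thus above control at 6 h and do not show a knockdown at 0 and 12 h. At 6 h the E75 RNAi libraries also had more Sox14 (3831 against 487) and EcR (1123 against 328) than control. In Sox14 RNAi neurons at 6 h Eip75B averaged 14823. Read levels of Eip75B alone do not decide whether E75 was reduced. E75 RNAi below means the libraries so labelled, with no statement on how much E75 they lack. EcR averaged 1214 normalized reads in EcR-DN neurons against 4743 in control at L3, and 2477 against 328 at 6 h. Transcripts of an EcR-DN transgene may count as EcR, so EcR is no check of that label.

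In unperturbed γ neurons the 4 genes were highest at different times after puparium formation, with haf and 2mit alike. Leucine-rich repeat genes haf and 2mit were highest at 3 h and rho at 6 h. For sca the levels stayed close to their maximum from 9 to 30 h. The plot of library values shows these windows and the adult cell types.

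**Figure D1:**
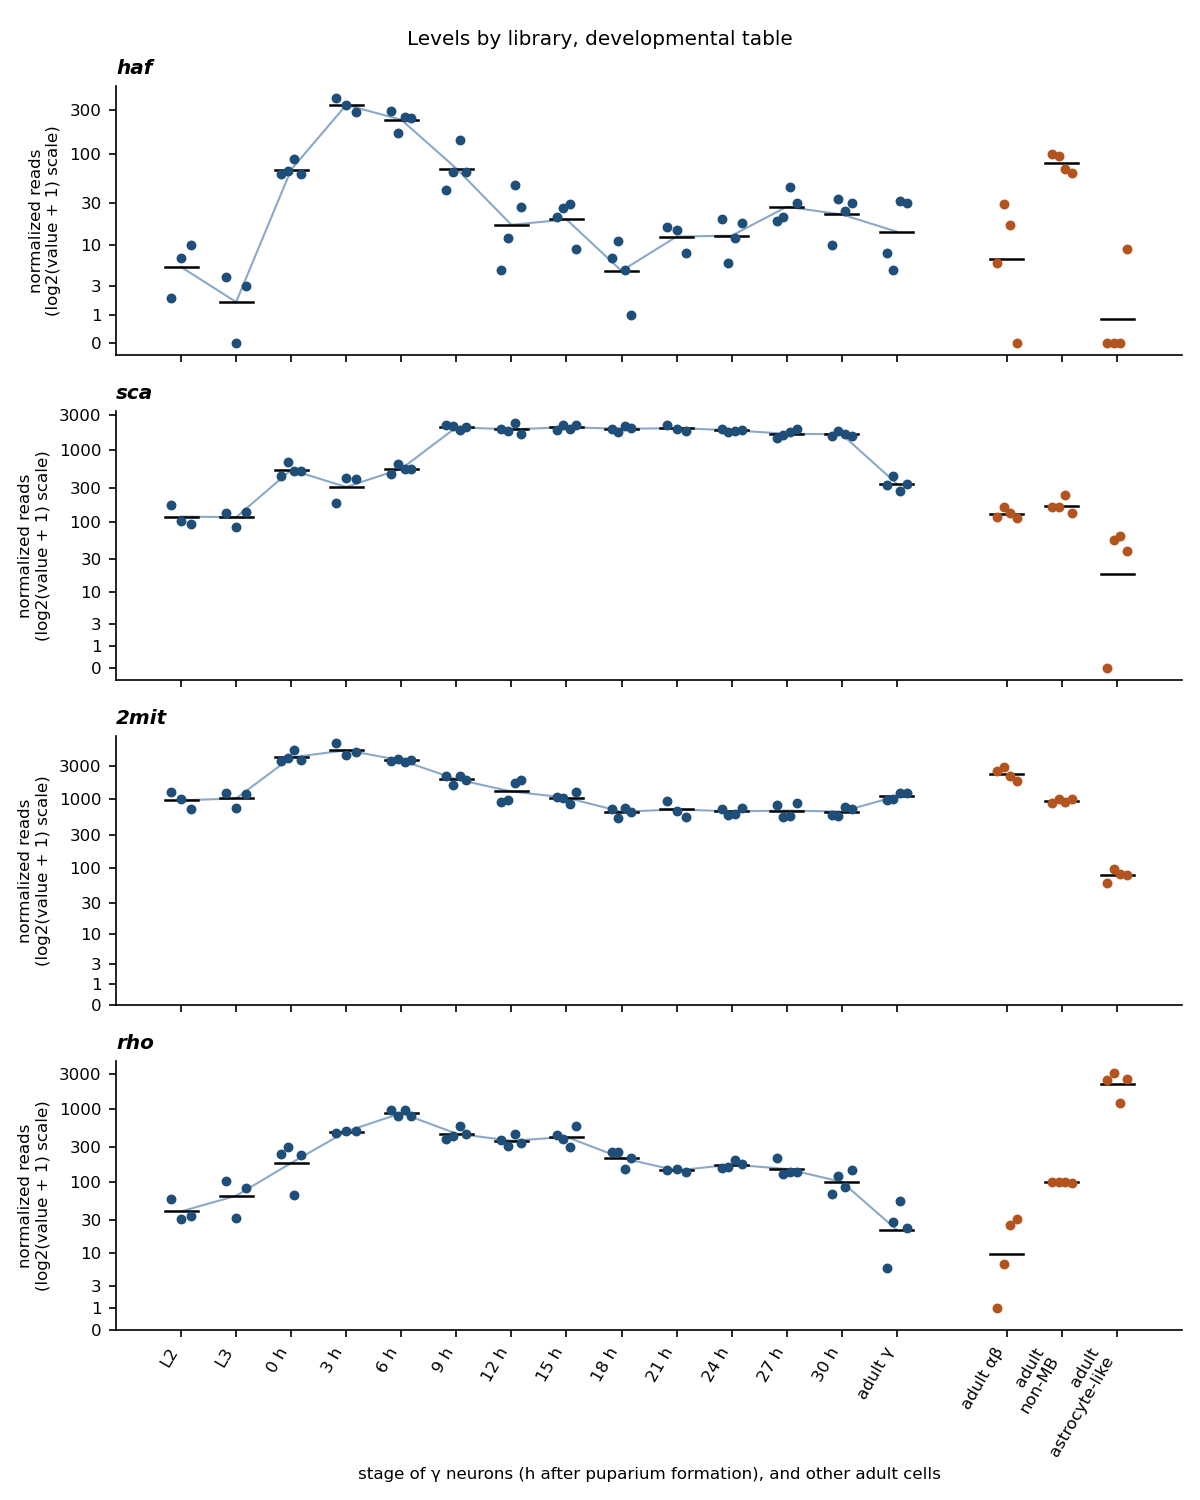
Normalized reads of haf, sca, 2mit and rho in each developmental library, on a log2(value + 1) axis labelled in normalized reads, against the stage of γ neurons (blue) and, at the right, the other adult cell types (orange). Points are libraries, black bars the group means on the log2 scale, and the line joins γ stage means. Larval haf lies between 0 and 10 and its 3 h libraries between 285 and 399, and rho lies between 1196 and 3074 in astrocyte-like cells.

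Larval γ neurons had next to no haf. Its values were 2, 7 and 10 normalized reads at L2, 4, 0 and 3 at L3, 61, 66, 90 and 61 at 0 h, 399, 340 and 285 at 3 h, and 291, 169, 254 and 245 at 6 h. At 9 h they were 41, 65, 142 and 65, at 12 h 5, 12, 47 and 27, and at 15 h 21, 26, 29 and 9. Every 0 h library thus lay above every larval one, and the 3 and 6 h libraries, which overlapped each other, lay above all other groups of the developmental table. The log2 difference between 0 h and L3 was 4.68 ± 0.77 (SE) and depends on the pseudocount, since the larval level is near 0. From 18 to 30 h haf ranged from 1 to 44 normalized reads, and neighbouring stages overlapped.

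Unlike haf, 2mit was already present in larvae. It had 1264, 994 and 709 normalized reads at L2, 1228, 743 and 1176 at L3, 3641, 3932, 5167 and 3683 at 0 h, 6568, 4351 and 4789 at 3 h, and 3638, 3913, 3535 and 3660 at 6 h. The 0 h libraries overlapped those at 3 h and at 6 h, the 3 h libraries lay above the 6 h ones, and all 3 stages lay above every library of the other groups, adult αβ neurons included. The log2 difference between 0 h and L3 was 1.99 ± 0.22 (SE). At 9 h the values were 2144, 1608, 2185 and 1915, and at 12 h 900, 958, 1717 and 1894, so that 9 h stood below 6 h without overlap. By 18 h 2mit was at 722, 539, 735 and 643, below every L3 library.

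Annotation bears on the 2mit values. In the Release 6 annotation the long non-coding RNA gene CR45109 overlaps 2mit on the same strand, and it was at 45.1% to 61.3% of the 2mit level in each of 16 neuron groups of the developmental table and at 44.1% to 61.0% in the 16 groups of the perturbation table. Reads of these genes may be shared and cannot be told apart here. Genes on the opposite strand overlap haf (Rab3GAP1, nis), sca (CR45137), 2mit (timeout) and rho (Ptp61F), and whether the counting used strand is not stated. Of these, CR45137 did not pass 13 normalized reads in any library, timeout had group means of 2.67 to 42.0, and Ptp61F had group means of 72.8 to 535. Rab3GAP1 had group means of 26 to 290 in the developmental table and 95.7 to 439 in the perturbation table, above haf in many groups. It averaged 290 at 0 h and 134 at L3, where haf averaged 69.5 and 2.33. At 3 h and 6 h it averaged 183 and 162, where haf averaged 341 and 240. In the perturbation table at 6 h it averaged 141 in Sox14 RNAi and 164.5 in control, where haf averaged 9 and 177.5. The part of Rab3GAP1 in the haf values was not tested.

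The secreted protein gene sca had 2 steps. Values were 173, 104 and 95 normalized reads at L2, 136, 85 and 139 at L3, 439, 684, 508 and 509 at 0 h, 183, 404 and 391 at 3 h, and 458, 646, 547 and 551 at 6 h. They then stood at 2203, 2101, 1854 and 2029 at 9 h and 1920, 1802, 2320 and 1664 at 12 h. Larval and 0 h libraries did not overlap, and neither did 6 and 9 h libraries, with log2 differences of 2.16 ± 0.55 (SE) for 0 h over L3 and 1.90 ± 0.51 for 9 h over 6 h. All 8 stages from 9 to 30 h overlapped their neighbours in level, with stage means of 1640 to 2052, and every library of these stages lay above every library of every other group.

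The protease gene rho climbed through more stages. It had 59, 31 and 34 normalized reads at L2, 103, 32 and 84 at L3, 243, 299, 66 and 235 at 0 h, 474, 503 and 499 at 3 h, and 977, 795, 949 and 791 at 6 h. At 9 h it had 384, 433, 591 and 456, at 12 h 376, 313, 457 and 340, and at 15 h 437, 384, 299 and 593. One 0 h library, at 66, lay within the L3 range, while the other three lay above it, and 6 h lay above all other γ stages without overlap. The log2 difference was 1.48 ± 0.51 (SE) for 0 h over L3 and 2.25 ± 0.47 for 6 h over 0 h.

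Scaled to each gene's highest stage mean, the order of the time courses is plain. At 0 h 2mit was at 78.4% of its highest mean, against 26.1% for sca, 24.0% for rho and 20.4% for haf. At 9 h the order was sca at 99.7%, rho at 53.1%, 2mit at 37.5% and haf at 22.9%. Over the 14 γ stage means, Pearson's r was 0.81 between haf and 2mit, 0.66 between haf and rho, 0.50 between 2mit and rho, 0.47 between sca and rho, 0.09 between haf and sca, and -0.35 between sca and 2mit. These r values describe stage means from one table and carry no p.

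**Figure D2:**
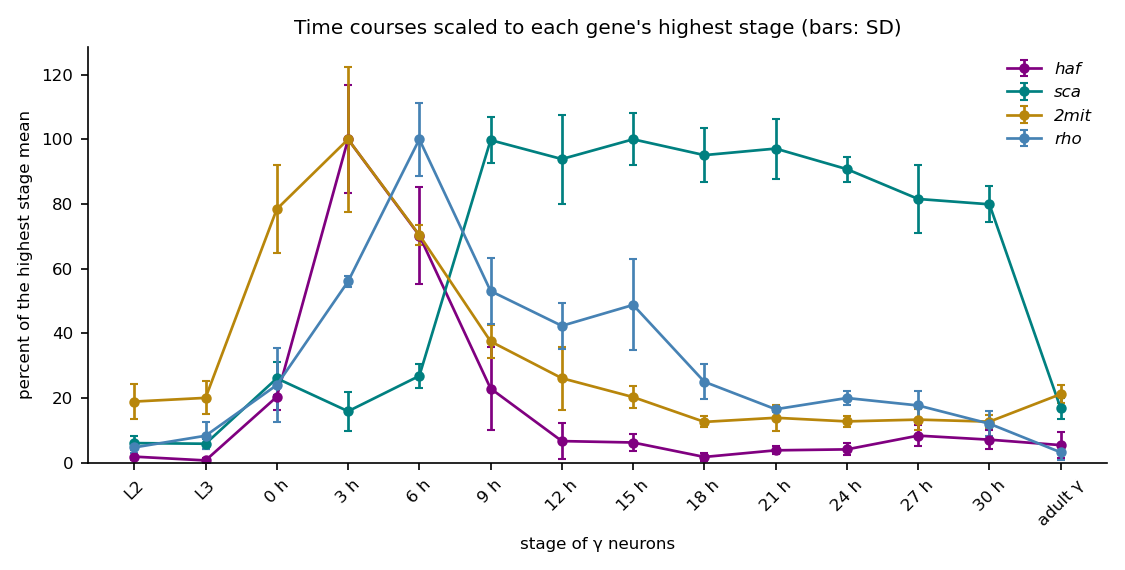
Mean level of each gene at the 14 stages of γ neurons, as a percentage of that gene's highest stage mean; bars are the SD over libraries on the same scale. The curve of 2mit is already at 78.4% at 0 h, haf and 2mit peak at 3 h, rho at 6 h, and sca is between 79.9% and 100% from 9 to 30 h.

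The epithelial marker list, mainly through Osi6, Osi7 and TwdlT, moved at 6 h. The summed level of the epithelial markers grh, crb, Osi6, Osi7 and TwdlT was 0 to 15 normalized reads at 0 h, 32 to 101 at 3 h, 600 to 1045 at 6 h and 6 to 94 at 9 h. Most of it came from Osi6, Osi7 and TwdlT, which belong to cuticle and tracheal gene families, and grh and crb, which define epithelia, averaged 9 and 4.5 at 6 h. At 6 h rho was at its highest γ level with the sum at 600 to 1045. At 3 h haf and 2mit were at their highest with the sum at 32 to 101, and from 9 to 30 h sca was high with the sum at 0 to 94. The part of these markers in the levels of the 4 genes was not tested at any stage. Glial markers stayed at 77 or below and neural progenitor markers at 94 or below in all γ libraries of this table.

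After 15 h, outside the stages used in the choice, rho went on down. It had 68, 123, 87 and 145 normalized reads at 30 h, against 437, 384, 299 and 593 at 15 h, and fell by 2.02 ± 0.47 on the log2 scale (SE, limma, adjusted p = 0.00483), with no overlap. The gene 2mit had 585, 573, 773 and 725 at 30 h, against 1087, 1046, 839 and 1274 at 15 h. That difference of -0.67 ± 0.20 missed the threshold (limma, adjusted p = 0.0531) although the libraries did not overlap, and it passed with a pseudocount of 4, with another scaling, without the astrocyte-like libraries or without 15 h replicate 3. Neither sca (log2 difference -0.32 ± 0.51) nor haf (0.18 ± 0.72) was called. One of the 4 genes was thus called, against 3.26% of all 8320 genes tested.

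A limma F test among the 6 stages from 15 to 30 h called 0 of the 4 genes, against 2.72% of all genes. At an unadjusted p under 0.05 the count was 3 of the 4. It cannot be weighed, since the share of all genes at that level was not counted. For rho the adjusted p was 0.0844 (F = 4.14), and it was 0.0109 with a pseudocount of 4 and 0.000253 with the 6 stages fitted alone. For the plateau gene sca, F was 0.139 (adjusted p = 1).

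Adult γ neurons differed from those at 30 h in 3 of the 4 genes, against 18.6% of all genes. The sca gene fell to 327, 436, 274 and 343 normalized reads in the adult, against 1572, 1802, 1632 and 1552 at 30 h, a log2 difference of -2.26 ± 0.51 (limma, adjusted p = 0.000552). For rho the adult values were 6, 28, 55 and 23, against 68, 123, 87 and 145 at 30 h, a difference of -2.16 ± 0.47 (adjusted p = 0.000388). The leucine-rich repeat gene 2mit rose, with 958, 1017, 1239 and 1223 in the adult, against 585, 573, 773 and 725 at 30 h, a difference of 0.74 ± 0.20 (adjusted p = 0.00566). In none of the 3 did the libraries overlap. At 8, 5, 31 and 30 normalized reads in the adult and 10, 33, 24 and 30 at 30 h, haf was not called (-0.61 ± 0.72, adjusted p = 0.660).

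Among adult neurons 2mit was lower in γ than in αβ neurons. It had 958, 1017, 1239 and 1223 normalized reads in γ neurons, against 2544, 2964, 2140 and 1855 in αβ neurons, a log2 difference of -1.08 ± 0.20 (limma, adjusted p = 9.86e-05) without overlap. Epithelial markers summed to 7 to 11 in γ libraries, against 219 to 413 in αβ libraries, nearly all of it crb, and 5 to 18 in non-MB libraries, and their part in the differences of αβ neurons was not tested. Of the 4 genes 2mit alone was called between γ and αβ neurons, against 7.51% of all genes. With 327, 436, 274 and 343 in γ and 117, 162, 134 and 113 in αβ neurons, sca did not overlap either. Its difference of 1.38 ± 0.51 missed the threshold (adjusted p = 0.0911) and passed it when the astrocyte-like libraries were left out (adjusted p = 8.49e-08), of which 1 was at 0 and the others at 40 to 65. The difference in rho, 1.08 ± 0.47, had an adjusted p of 0.195, and one of 0.0197, 0.0451 or 0.0290 without adult γ replicate 1, αβ replicate 3 or αβ replicate 4. That in haf, 0.96 ± 0.72, was not called and turned to -0.034 without αβ replicate 4, which is at 0.

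Mushroom body neurons had less haf and rho than non-MB neurons. The haf values were 8, 5, 31 and 30 normalized reads in γ neurons and 6, 29, 17 and 0 in αβ neurons, against 100, 96, 69 and 63 in non-MB neurons. The log2 difference was -2.42 ± 0.72 for γ (limma, adjusted p = 0.0129) and -3.38 ± 0.72 for αβ (adjusted p = 0.000284), with no overlap in either. The γ call was lost without adult γ replicate 1 (adjusted p = 0.0528) or replicate 2 (0.0807), and the αβ call with these 2 groups fitted alone (0.0633). For rho the values were 6, 28, 55 and 23 in γ and 1, 7, 26 and 31 in αβ neurons, against 102, 102, 100 and 98 in non-MB neurons. Its differences were -2.15 ± 0.47 (adjusted p = 0.000537) and -3.23 ± 0.47 (adjusted p = 3.10e-07), again without overlap.

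Levels of 2mit in non-MB neurons, 871, 991, 912 and 991, were below those of αβ neurons, and αβ minus non-MB was 1.31 ± 0.20 (limma, adjusted p = 1.18e-06). Its γ minus non-MB difference of 0.23 ± 0.20 was not called (adjusted p = 0.560). For sca, at 163, 161, 235 and 135 in non-MB neurons, γ minus non-MB was 0.998 ± 0.508 (adjusted p = 0.214, and 4.01e-05 without the astrocyte-like libraries), and αβ minus non-MB was -0.38 ± 0.51 (adjusted p = 0.741). Of the 4 genes, 2 were called between γ and non-MB neurons, against 14.5% of all genes, and 3 between αβ and non-MB neurons, against 15.1%. Glial marker sums were 39 to 77 in γ, 12 to 204 in αβ and 182 to 352 in non-MB libraries, and their part in the rho difference was not tested.

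Glia were the cells richest in rho. It had 6, 28, 55 and 23 normalized reads in adult γ neurons, against 2459, 3074, 1196 and 2555 in astrocyte-like cells, a log2 difference of -6.58 ± 0.47 (limma, adjusted p = 2.43e-18). The astrocyte-like libraries also lay above the 6 h peak of γ neurons, at 791 to 977, with no overlap. The other three genes were higher in the γ neurons. Values of 2mit were 59, 95, 80 and 78 in astrocyte-like cells (γ minus astrocyte-like 3.82 ± 0.20, adjusted p = 8.72e-24), of sca 0, 56, 65 and 40 (4.11 ± 0.51, adjusted p = 4.59e-10), and of haf 0, 0, 0 and 9 (3.10 ± 0.72, adjusted p = 0.000222). All 4 were called, against 51.8% of all genes, and haf overlapped between the cells and lost its call with these 2 groups fitted alone (adjusted p = 0.0501). The overlapping gene Ptp61F averaged 535 in astrocyte-like cells, and elav, a neuronal marker, 513.

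Levels of the 4 genes in the perturbed γ neurons differed by strain. Over the mean of 0, 6 and 12 h, haf was lowest relative to control in Sox14 RNAi and rho in E75 RNAi, and sca and 2mit were low in both EcR-DN and Sox14 RNAi. EcR-DN means were below control in all 4. All of these comparisons were used to choose the genes and share control libraries, so they are descriptions, with no test.

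**Figure D3:**
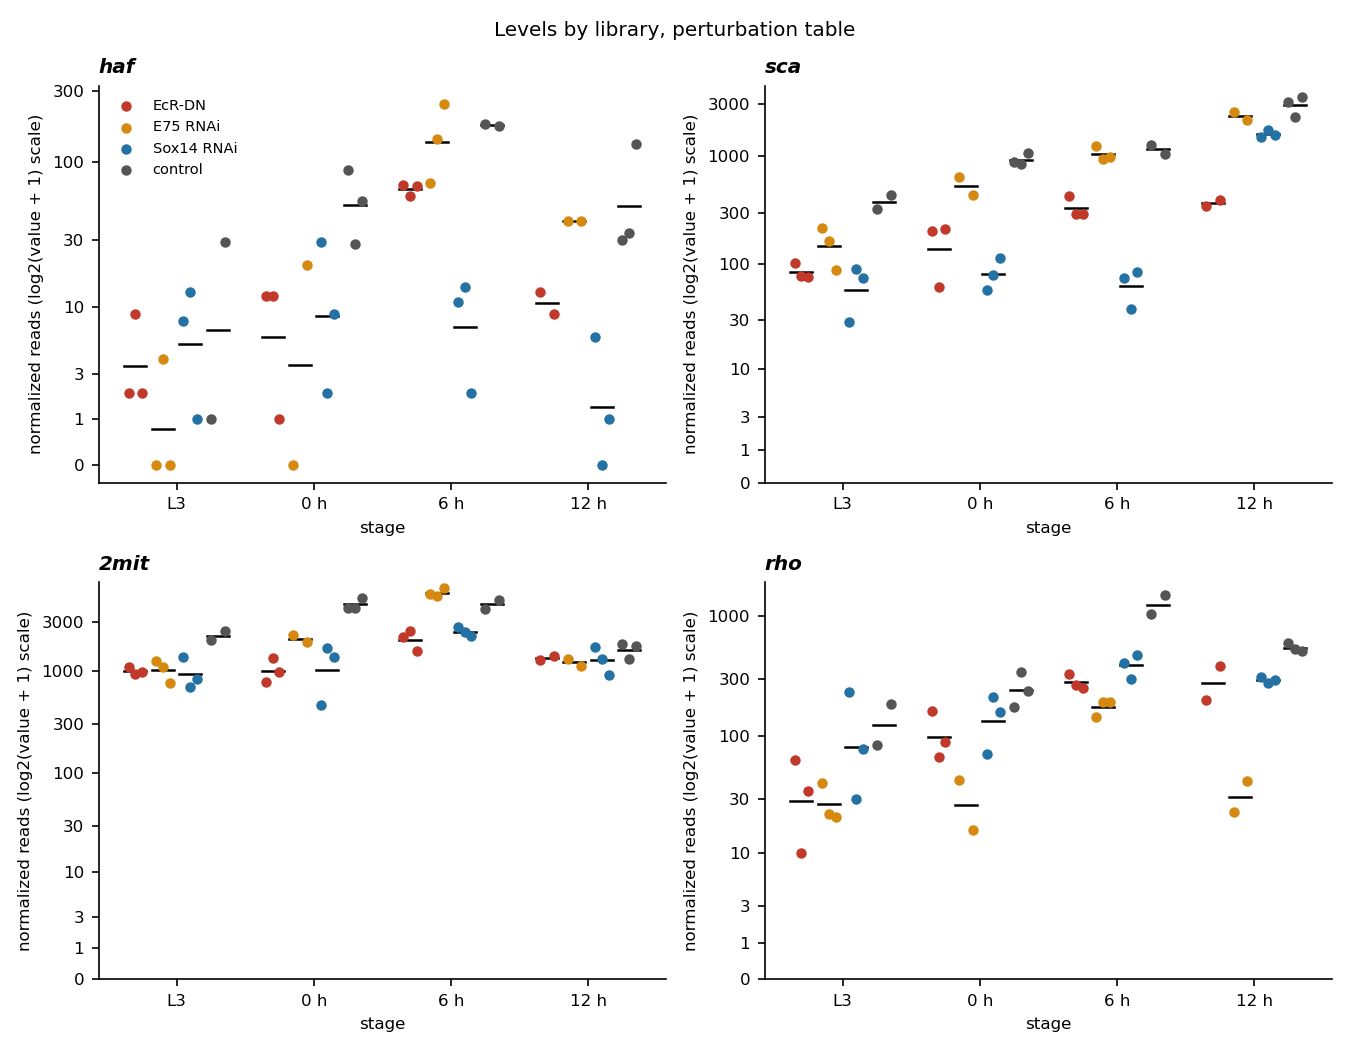
Normalized reads of haf, sca, 2mit and rho in each library of the perturbation table, on a log2(value + 1) axis labelled in normalized reads, at L3 and at 0, 6 and 12 h; within a stage the groups run EcR-DN (red), E75 RNAi (orange), Sox14 RNAi (blue), control (grey), and bars are group means on the log2 scale. In Sox14 RNAi sca lies between 38 and 86 at 6 h and between 1510 and 1727 at 12 h, and rho in E75 RNAi lies between 23 and 42 at 12 h.

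The stage at which haf was highest in the time course, 3 h, was not sampled under perturbation. In Sox14 RNAi neurons haf was low at 6 h. At 6 h it had 11, 14 and 2 normalized reads in Sox14 RNAi, 70, 59 and 69 in EcR-DN and 72, 143 and 244 in E75 RNAi, against 180 and 175 in control. The log2 differences from control were -4.45 ± 1.24, -1.42 ± 1.24 and -0.38 ± 1.24 (SE), and only E75 RNAi overlapped the control. At 0 h haf had 12, 12 and 1 in EcR-DN, 0 and 20 in E75 RNAi and 29, 2 and 9 in Sox14 RNAi, against 88, 28 and 55 in control, where the Sox14 RNAi range overlapped. At 12 h it had 13 and 9 in EcR-DN, 40 and 40 in E75 RNAi and 6, 0 and 1 in Sox14 RNAi, against 30, 33 and 132 in control. In the strains labelled E75 RNAi haf was thus low at 0 h and reached the control range at 6 and 12 h. L3 values were 0 to 13 in the perturbed strains, against 1 and 29 in control, too near 0 to compare.

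In Sox14 RNAi neurons sca lay far below control at 6 h and nearer to it at 12 h. At 6 h the gene had 75, 38 and 86 normalized reads in Sox14 RNAi, against 1274 and 1046 in control, a log2 difference of -4.18 ± 0.41, and a mean at 5.72% of control. At 12 h it had 1510, 1727 and 1565, against 3138, 2294 and 3477 in control, a difference of -0.87 ± 0.37 and 53.9% of control. At 12 h against 6 h the Sox14 RNAi level thus was higher by 4.65 ± 0.37 on the log2 scale, against 1.34 ± 0.41 in control. At 0 h Sox14 RNAi had 58, 80 and 115, against 886, 843 and 1058 in control. None of these ranges overlapped.

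In EcR-DN neurons sca had overlapping levels at 6 and 12 h. The gene had 204, 62 and 211 normalized reads at 0 h, 425, 293 and 290 at 6 h and 348 and 391 at 12 h, where its mean was 12.4% of control and the log2 difference was -2.98 ± 0.41. In the libraries labelled E75 RNAi it had 646 and 435 at 0 h, 1240, 937 and 972 at 6 h and 2537 and 2160 at 12 h, and it overlapped the control at 6 and 12 h. At L3 all perturbed strains were below control, with 104, 78 and 76 in EcR-DN, 216, 166 and 89 in E75 RNAi and 29, 91 and 75 in Sox14 RNAi, against 329 and 440 in control. L3 neurons of the developmental table, of the control genotype but scaled separately, had 136, 85 and 139.

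At 6 h the strains lay on both sides of the control in 2mit. It had 2108, 2454 and 1558 normalized reads in EcR-DN, 5519, 5332 and 6314 in E75 RNAi and 2651, 2350 and 2161 in Sox14 RNAi, against 3980 and 4910 in control. Both EcR-DN (-1.14 ± 0.32) and Sox14 RNAi (-0.89 ± 0.32) were thus below the control range, and E75 RNAi (0.37 ± 0.32) was above it. At 0 h the values were 766, 1335 and 973 in EcR-DN, 2205 and 1877 in E75 RNAi and 465, 1645 and 1358 in Sox14 RNAi, against 4079, 4077 and 5117 in control. All 3 strains were below control there, with log2 differences of -2.14 ± 0.29 in EcR-DN, -1.11 ± 0.32 in E75 RNAi and -2.12 ± 0.29 in Sox14 RNAi, and the E75 RNAi libraries lay above those of the other two strains. At 12 h all 3 overlapped the control, and their means were 75.5% to 82.6% of it.

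For 2mit, too, the control was higher than the other strains at L3. EcR-DN had 1077, 923 and 976, E75 RNAi 1246, 1093 and 756 and Sox14 RNAi 1364, 695 and 825, against 1966 and 2445 in control. L3 neurons of the time course, of the control genotype but scaled separately, had 1228, 743 and 1176. The 0 h level was close to that of L3 in EcR-DN (log2 difference 0.01 ± 0.29) and Sox14 RNAi (0.14 ± 0.29) and higher in E75 RNAi (1.01 ± 0.32), against 1.004 ± 0.323 in control. From 0 to 6 h it was higher by 1.01 ± 0.29 in EcR-DN, 1.49 ± 0.32 in E75 RNAi and 1.23 ± 0.29 in Sox14 RNAi, and by 0.01 ± 0.32 in control.

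The protease gene rho was lowest in the libraries labelled E75 RNAi at all 3 pupal stages. At 6 h it had 329, 267 and 253 normalized reads in EcR-DN, 144, 195 and 193 in E75 RNAi and 409, 302 and 477 in Sox14 RNAi, against 1032 and 1478 in control. Log2 differences were -2.13 ± 0.59, -2.81 ± 0.59 and -1.66 ± 0.59. No strain overlapped the control. At 12 h E75 RNAi had 23 and 42, EcR-DN 200 and 383 and Sox14 RNAi 312, 277 and 297, against 600, 531 and 510 in control, and the E75 RNAi mean was 5.94% of control (-4.09 ± 0.59). At 0 h E75 RNAi had 43 and 16, EcR-DN 164, 67 and 90 and Sox14 RNAi 71, 213 and 160, against 177, 346 and 240 in control, where only Sox14 RNAi overlapped.

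Larval rho was low in most strains. It had 64, 10 and 35 normalized reads in EcR-DN, 41, 22 and 21 in E75 RNAi and 233, 30 and 79 in Sox14 RNAi, against 85 and 185 in control. Over the mean of the 3 pupal stages the log2 differences for rho were -1.47 ± 0.33 in EcR-DN, -3.35 ± 0.34 in E75 RNAi and -1.14 ± 0.32 in Sox14 RNAi. The matching values were -2.16 ± 0.69, -1.41 ± 0.71 and -3.78 ± 0.66 for haf, -2.50 ± 0.23, -0.42 ± 0.24 and -2.85 ± 0.22 for sca, and -1.18 ± 0.18, -0.38 ± 0.19 and -1.12 ± 0.17 for 2mit.

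**Figure D4:**
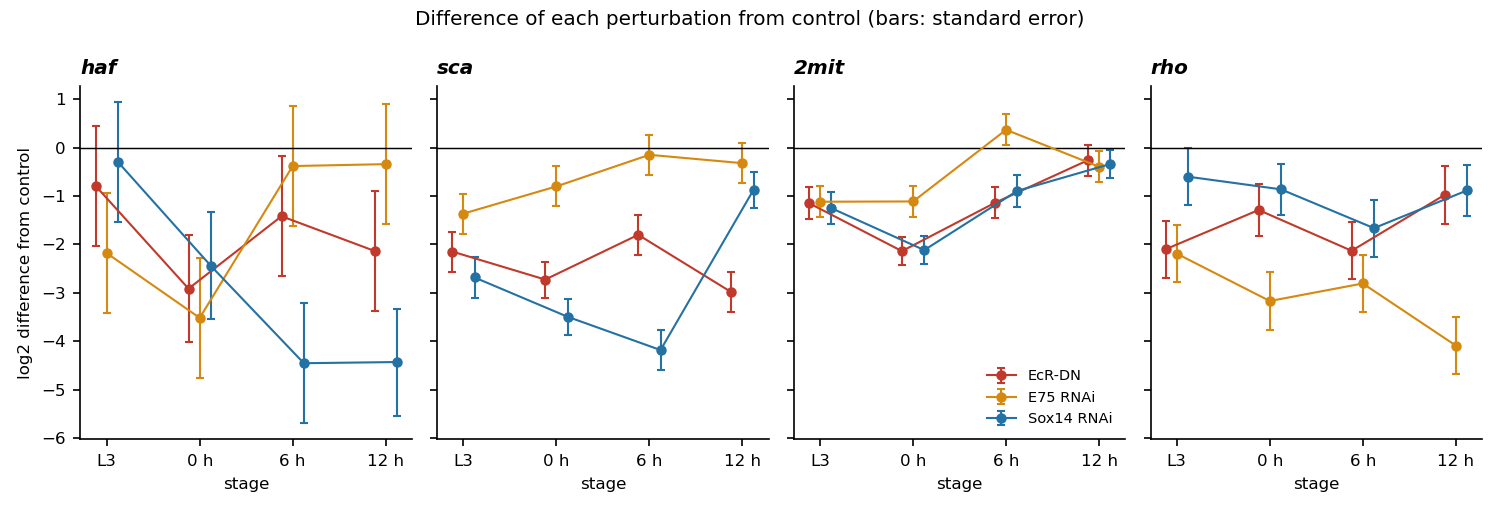
Log2 difference of EcR-DN (red), E75 RNAi (orange) and Sox14 RNAi (blue) from control at each stage for haf, sca, 2mit and rho; bars are standard errors from limma and the line at 0 marks the control. Below 0 the strain is lower than control: rho in E75 RNAi reaches -4.09 at 12 h, sca in Sox14 RNAi reaches -4.18 at 6 h and -0.87 at 12 h, and 2mit in E75 RNAi is at 0.37 at 6 h.

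Summed marker lists of other cell types also differed between the strains. At 6 h the 5 epithelial markers summed to 470 to 1049 normalized reads in EcR-DN, 1395 to 1536 in E75 RNAi and 49 to 424 in Sox14 RNAi, against 2323 to 3206 in control. All 5 were detected in each of these groups. In the time course most of the 6 h sum came from Osi6, Osi7 and TwdlT, and the sums of the strains are not split by gene here. The part of these markers in the differences of haf, sca, 2mit and rho was not tested at any stage. At 12 h the sums were 7 to 38 in EcR-DN, 2 to 23 in E75 RNAi and 21 to 69 in Sox14 RNAi, against 5 to 63 in control. At L3 they were 20 to 80 in EcR-DN, 39 to 96 in E75 RNAi and 8 to 687 in Sox14 RNAi (median 48), against 57 to 107 in control. At 0 h they were 8 to 84, 57 to 74 and 41 to 485 (median 61), against 31 to 78 in control. Neural progenitor markers (dpn, mira, wor, ase) summed to 102 to 183 in EcR-DN and 88 to 130 in E75 RNAi at L3, against 8 to 41 in control. At 0 h they summed to 41 to 143 in EcR-DN, 61 to 69 in E75 RNAi and 3 to 150 in Sox14 RNAi, against 1 to 2 in control, and at 6 h to 48 to 196 in E75 RNAi, against 2 to 18 in control. Their part was not tested either.

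Each of the 4 genes belongs to a pathway or family with other members in the tables. Lists of 30 EGFR pathway genes, 30 Notch pathway genes and 29 leucine-rich repeat surface protein genes, without the 4 genes themselves, were tested. The comparisons were 0 h against L3, 6 h against 0 h, and each strain against control over the mean of 0, 6 and 12 h. Levels given for a strain or its control average all libraries of these 3 stages, while log2 differences weight the stages equally. The lists describe the surroundings of haf, sca, 2mit and rho and were chosen with earlier results of these data known. The inhibitor gene kek1 stands on both the EGFR and the leucine-rich repeat list.

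Among EGFR genes few were called around puparium formation. At 0 h against L3, 1 of 28 tested genes rose and 2 fell, against 3.12% of all genes higher and 5.41% lower. The riser was ru (roughoid), a rhomboid-family protease gene, at 128 normalized reads at 0 h, against 31.0 at L3 (2.08 ± 0.68, limma, adjusted p = 0.0417). Falling genes were sty (sprouty), an inhibitor of the pathway, at 50.5 against 593 (-3.55 ± 0.49), and RasGAP1, at 31.8 against 77.3 (-1.42 ± 0.47). The count of 3 became 1 without L3 replicate 3 or without 0 h replicate 3. At 6 h against 0 h, 2 genes rose and 3 fell, against 6.03% and 5.58% of all genes, and stet (rhomboid-2), another rhomboid-family gene, rose to 64.3 against 12.3 (2.29 ± 0.58).

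In the perturbations the EGFR list held genes in both directions. In EcR-DN 3 of 29 rose and 4 fell, against 10.6% and 5.87% of all 8656 genes tested. In E75 RNAi 2 rose and 4 fell, against 7.01% and 5.58%, and in Sox14 RNAi 1 rose and 2 fell, against 5.27% and 6.34%. The protease gene ru fell in all 3 strains, with 82.0 normalized reads in EcR-DN (-1.78 ± 0.33), 63.3 in E75 RNAi (-2.56 ± 0.34) and 141 in Sox14 RNAi (-1.03 ± 0.32), against 241 in control. The inhibitor gene sty rose in 2 strains, at 372 in EcR-DN (2.20 ± 0.46) and 1112 in E75 RNAi (4.28 ± 0.48), against 61.5 in control. E75 RNAi, the strain with the lowest rho, also had the lowest ru and the highest sty mean. These are 2 picked genes of the 29, and a link to rho was not tested. The median of the list in E75 RNAi was -0.07 on the log2 scale, against -0.10 over all genes tested. The Sox14 RNAi count of 3 became 5 without control 12 h replicate A or without Sox14 RNAi 0 h replicate A.

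Among Notch genes, the pathway that sca modulates, 5 of 29 rose at 0 h against L3 and 0 fell in the limma test. The shares of all genes were 3.12% and 5.41%. At an unadjusted p under 0.05 the counts were 7 and 3. They cannot be weighed, since the shares of all genes at that level were not counted. The 5 risers included the γ-secretase genes Psn (223 at 0 h, against 98 at L3, 1.16 ± 0.32) and aph-1 (164 against 59.3, 1.502 ± 0.364). They also included the epsin gene lqf (874 against 303, 1.53 ± 0.35) and the ubiquitin ligase gene Nedd4 (278 against 148, 0.91 ± 0.29). The count of 5 became 3 without L3 replicate 2, L3 replicate 3 or 0 h replicate 3. At 6 h against 0 h 0 rose and 1 fell, against 6.03% and 5.58% of all genes. Unadjusted counts were 3 and 2, which cannot be weighed either without shares of all genes at that level. The 1 gene was lqf, at 398 against 874 (-1.13 ± 0.32), and the count became 2 without 0 h replicate 4, 6 h replicate 2 or 6 h replicate 4.

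In EcR-DN 1 of 30 Notch genes rose and 5 fell, against 10.6% and 5.87% of all genes. In E75 RNAi 0 rose and 3 fell, against 7.01% and 5.58%, and in Sox14 RNAi 1 rose and 7 fell, against 5.27% and 6.34%. With an unadjusted p under 0.05 the E75 RNAi counts were 0 and 4, which cannot be weighed without the shares of all genes at that level. The medians of the list were -0.41, -0.23 and -0.34 on the log2 scale, against 0.07, -0.10 and 0.08 over all genes tested. Psn fell to 189 normalized reads in EcR-DN (-1.04 ± 0.17) and 142 in Sox14 RNAi (-1.38 ± 0.17), against 371 in control, and numb, a Notch inhibitor gene, rose to 137 (1.65 ± 0.42) and 111 (1.26 ± 0.41), against 42.3 in control. The Notch target gene E(spl)malpha-BFM fell to 15.3 in Sox14 RNAi, against 84.3 in control (-2.43 ± 0.54). For Sox14 RNAi the count of 8 became 4 without control 0 h replicate C or control 6 h replicate C, and 5 without Sox14 RNAi 6 h replicate B or 12 h replicate A.

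Leucine-rich repeat genes, the family of haf and 2mit, differed among themselves. At 0 h against L3, 2 of 24 tested genes rose and 1 fell, against 3.12% and 5.41% of all genes. The risers were caps and Tl: caps (capricious), a cell recognition gene, had 678 normalized reads at 0 h, against 178 at L3 (2.02 ± 0.27), and the Toll receptor gene Tl had 1091 against 422 (1.36 ± 0.28). At 6 h against 0 h, 5 rose and 4 fell, against 6.03% and 5.58%. The adhesion gene Con (connectin) rose to 413 at 6 h, against 74.5 at 0 h (2.47 ± 0.25), while caps fell to 383 against 678 (-0.81 ± 0.25) and kek1 to 670 against 1569 (-1.22 ± 0.21). The count of 9 became 5 without 0 h replicate 1, 2 or 4 or 6 h replicate 4, and 4 without 6 h replicate 2.

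Under the perturbations caps went both ways. It rose to 975 normalized reads in E75 RNAi (1.26 ± 0.24) and fell to 132 in Sox14 RNAi (-1.56 ± 0.23), against 434 in control. Con and Fili fell in E75 RNAi, to 127 (-1.62 ± 0.36) and 177 (-1.52 ± 0.25), against 344 and 284 in control. Both also fell in Sox14 RNAi, to 292 (-0.99 ± 0.33) and 178 (-0.87 ± 0.23). The Kekkon gene kek3 rose to 352 in EcR-DN (2.40 ± 0.38) and 285 in E75 RNAi (1.35 ± 0.39), against 119 in control. In all, 3 of 23 rose and 1 fell in EcR-DN, against 10.6% and 5.87% of all genes. In E75 RNAi 4 rose and 3 fell, against 7.01% and 5.58%, and in Sox14 RNAi 2 rose and 3 fell, against 5.27% and 6.34%. The Sox14 RNAi count of 5 became 3 without control 0 h replicate A, 6 h replicate C or 12 h replicate A or B, or without Sox14 RNAi 0 h replicate B, 6 h replicate A or B, or 12 h replicate A or C.

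**Figure D5:**
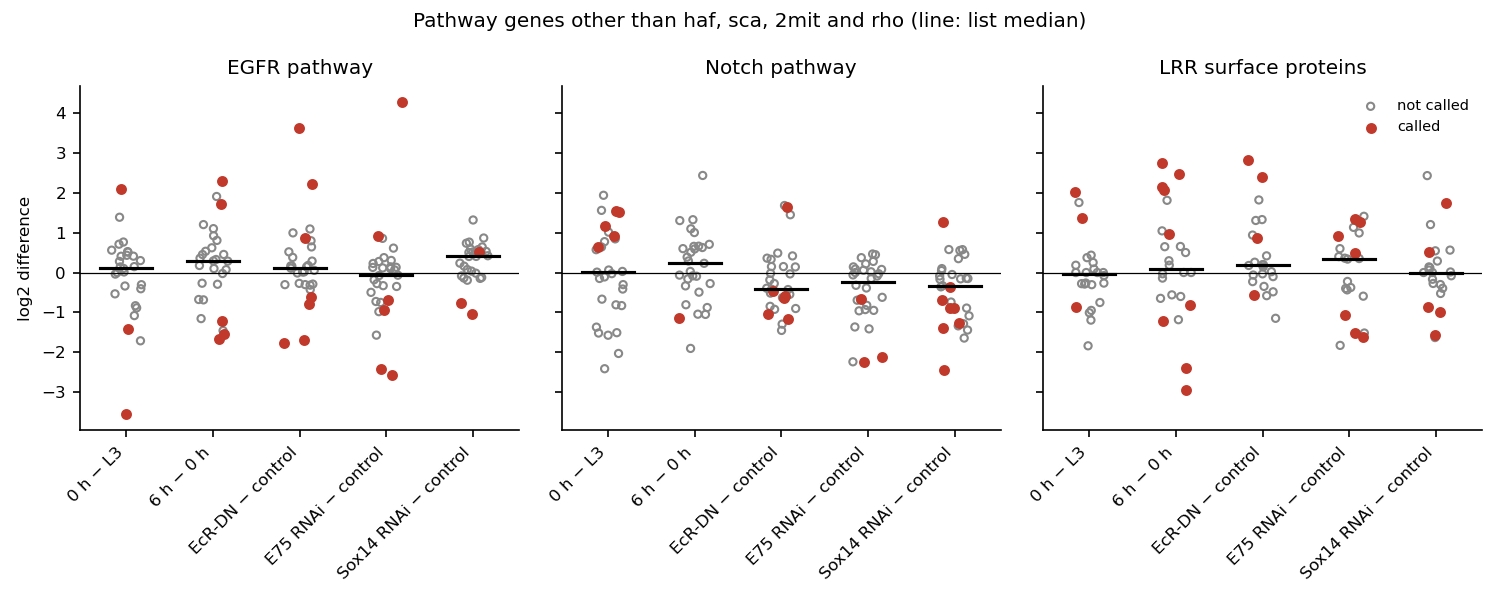
Log2 differences of the tested genes of each list, without haf, sca, 2mit and rho, in 5 comparisons. Those of a strain against control are over the mean of 0, 6 and 12 h. Filled points passed an adjusted p of 0.05 in limma, open points did not, and the black line is the list median. Called genes lie on both sides of 0 in most columns, and sty, at 4.28 in E75 RNAi and -3.55 at 0 h against L3, is the farthest point of the EGFR list in both.

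Genes with time courses most like those of the 4 genes were taken by Pearson's r over the 14 γ stage means, with no p. For haf they were CG42231 and chif (each 0.954), CG3645 and CG17075 (each 0.942) and CG8910 (0.925). CG42231 and chif had equal values in all 64 libraries and count as 1 gene, and CG3645 and CG17075 overlap on the same strand in the annotation. For 2mit they were CR45109 (0.998), the neuropeptide receptor gene PK2-R1 (0.977), Irc (0.976), CG16721 (0.971) and CG10713 (0.970). For sca they were pum (0.962), a translational repressor gene, CG43658 (0.961), CG7518 (0.958), SP1173 (0.945) and CG13300 (0.941). For rho they were Diap1 (0.965), an inhibitor of apoptosis gene, CG12643 (0.962), the cadherin gene CadN (0.960), Trax (0.957) and Map60 (0.955). Like rho, CadN was highest at 6 h, with a mean of 4572 normalized reads, against 683 at L3, while pum had means of 4702 to 5569 from 9 to 30 h, the plateau of sca.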

How the data were processed

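The authors deposited 2 tables of normalized read counts per gene, rounded to whole numbers, per the file headers. They were treated as a score, since the authors' normalization is not named, and no count model was used. The tools listed in the submitters' processing notes are HISAT 0.1.5, HOMER and bcl2fastq. Their genome build is not stated, so coordinates are left out, and chromosomes and gene overlaps come from the Release 6 annotation.

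Groups came from the labels. A gene entered the fits if it reached 10 normalized reads in 3 developmental or 2 perturbation libraries, which left 8320 and 8656 of 17050, the 4 genes among them in both tables. Values on the scale log2(value + 1), which understates changes of low genes, were fitted within each table with limma 3.58.1 (R 4.3.3, statmod 1.5.0), with a mean per group and a trend in the spread. Two-sided p-values were adjusted by Benjamini and Hochberg's method across all genes in the fit, and a gene was called at 0.05. The 4 genes and the lists were chosen with earlier results of these data known. List genes are named if called with a mean of at least 50 in either group, at most 4 per list and comparison, by size of difference, and the genes named as alike are the 5 with the highest r. The fits were checked on simulated data. Depth as sequenced is unknown in most libraries.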

Additional observations from a re-analysis of the deposited data

Results flagged for a closer look

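A library far from the rest of its group occurred in 2 of the 52 groups of 4 libraries screened over the 4 genes, and chance alone gives about 1 in 20. For haf, astrocyte-like replicate 4 had 9 normalized reads and the other three had 0. For rho, γ neurons at 27 h replicate 1 had 213, and the others 131, 138 and 139.

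In the libraries labelled E75 RNAi, 2mit went in opposite directions at different stages. Its log2 difference from control was 0.37 at 6 h, with every E75 RNAi library above every control library, and -1.12 at L3 and -1.11 at 0 h, with every one below. The difference between the stages was not tested, since these values were used to choose the gene.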

How the results depend on the processing

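Of 192 other settings of the comparisons of the 4 genes, 180 kept direction and side of the threshold, and the causes of the exceptions were not tested except where stated. With a pseudocount of 4, rho passed the F test from 15 to 30 h (F = 5.70), as did 2mit at 30 h against 15 h (-0.67) and sca for γ minus αβ (1.36). With median-ratio rescaling 2mit at 30 h against 15 h passed (-0.68). With only the compared groups fitted, rho passed the F test (F = 17.2) and sca passed for γ minus αβ (1.38) and γ minus non-MB (0.998), while haf lost its call for αβ minus non-MB (-3.38) and γ minus astrocyte-like (3.10), with fewer libraries behind the spread. Without the astrocyte-like libraries 2mit at 30 h against 15 h (-0.67) and sca for γ minus αβ (1.38) and γ minus non-MB (0.998) passed. Leaving out 1 library at a time gave -0.17 to 0.53 for haf at 30 h against 15 h (-0.0083 without 30 h replicate 2), -0.78 to -0.58 for 2mit at 30 h against 15 h, -0.034 to 1.60 for haf and 0.26 to 1.64 for rho in γ minus αβ, and -2.78 to -1.97 for haf in γ minus non-MB. List counts moved as follows. For 0 h against L3, EGFR genes numbered 1 with no filter or with a robust fit without trend and 1 to 4 with a library left out, and Notch genes 8 with a pseudocount of 4 or without astrocyte-like libraries and 3 to 5 with a library left out. For 6 h against 0 h, Notch genes numbered 2 with a pseudocount of 4 or without astrocyte-like libraries and 1 to 2 with a library left out, and leucine-rich repeat genes 4 with the compared groups alone and 4 to 8 with a library left out. In E75 RNAi the compared groups alone gave 3 EGFR and 4 leucine-rich repeat genes. In Sox14 RNAi leucine-rich repeat genes numbered 3 with no filter or the robust fit, 2 with the compared groups alone and 3 to 6 with a library left out, Notch genes 5 with the robust fit and 4 to 7 with a library left out, and EGFR genes 2 to 5 with a library left out. The replicate block changed no call (rho at 30 h against 15 h stayed at -2.02, adjusted p = 0.00482). Same-numbered libraries did not deviate together (correlations of -0.05 to 0.06 over 17 pairs of groups), so the numbers do not pair libraries. Depth limits haf most, since many of its values are at or near 0.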
